A study of Mus musculus with 36 samples.

Results

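Mouse embryonic stem cells, which can form all tissues of the embryo, were sampled under IAA (auxin) at day 0 and day 2, and the change between these days was followed across all genes. The comparison used the 6 libraries of the count table labelled IAA at those days, 3 per day, of 36 libraries in the whole series. The other 30 libraries held IAA at days 4 and 6 and the treatments DMSO, a common solvent, and BPK25, a compound known here by its code name, at days 0, 2, 4 and 6. In cells engineered with a degron, IAA causes the protein bearing it to be degraded. The labels used here name no tagged protein, genotype, dose or clone, and do not say what the day is counted from. All groups shared medium with serum replacement and LIF, the cytokine that holds these cells in the naive state, and typically grew on gelatin with irradiated fibroblast feeders. The labels do not say whether replicates came from separate cultures, so the p-values reflect the spread among libraries alone, and that spread may be technical.

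Mouse embryonic stem cells in LIF express a naive pluripotency network (Klf4, Esrrb, Nanog, Zfp42) on top of a core network (Pou5f1, Sox2). Retinoic acid is a vitamin A derivative that enters the nucleus, binds RAR and RXR receptors and switches on genes such as Cyp26a1, Rarb and Hox genes. Its level is kept in check because CYP26 enzymes, which it induces, degrade it. Nodal and FGF are secreted signals that stem cells make themselves and that act on their exit from pluripotency.

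Stem cell identity was checked on markers. The summed level of 8 stem cell markers was 3540 to 3585 CPM (counts scaled to a common library size, as edgeR does) at day 0 and 1522 to 1556 CPM at day 2, and none of the 8 was at 0. In DMSO it was 2726 ± 62.9 CPM at day 0 and 2566 ± 7.99 CPM at day 2 (SD, n = 3 each, as for every ± after a CPM value). The 8 fibroblast feeder markers summed to 22.8 to 24.0 CPM at day 0 and 24.5 to 28.02 CPM at day 2, with 1 and 2 of the 8 at 0 in all 3 libraries. Library totals were 7329926 to 9764880 counts at day 0 and 7887986 to 10633059 at day 2. Mitochondrial genes took 1.57% to 1.61% and 1.65% to 1.77% of counts. In bulk RNA, fewer cells of a type and less RNA per cell cannot be told apart.

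The IAA libraries at day 0 already stood apart from the other day 0 libraries. Of 17394 genes tested, 3709 (21.3%) were higher and 4027 (23.2%) lower in IAA than in DMSO at day 0, at an adjusted p under 0.05. For BPK25 at day 0 the same counts were 577 (3.32%) and 797 (4.58%). The cause of the gap at day 0 was not tested, and the level in DMSO is therefore given beside many of the results.

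Expression also moved by chromosome. On chromosome 12, 43.5% of genes tested rose and 17.7% fell from IAA day 0 to day 2, with a median log2 fold change of 0.26. On chromosome X, 39.6% rose and 19.7% fell, with a median of 0.21. On chromosome 14, 20.2% rose and 37.6% fell, with a median of -0.18. The remaining autosomes had medians from -0.09 to 0.08. Within chromosome 14 the median was 0.32 for 131 genes between 20 and 40 Mb and -0.37 for 181 genes between 40 and 60 Mb, and it lay between -0.38 and -0.23 in every 20 Mb stretch from there to the end, the value nearest 0 resting on 18 genes. The median was above 0 in each of the 6 stretches of chromosome 12, from 0.14 to 0.38. Chromosome 12 held 4.35% to 4.38% of counts in the 3 IAA day 0 libraries, 4.82% to 4.86% at IAA day 2, and 3.545% to 3.612% in the 6 DMSO libraries of both days. High shares were not limited to IAA, since BPK25 at day 4 had 4.96% to 4.97%. BPK25 at day 6 had 3.994% to 4.002%, nearer to DMSO, which had 3.819% to 3.837% at day 4 and 3.868% to 3.895% at day 6. Chromosome 8 also took a larger share in IAA, 5.33% to 5.35% at day 0 and 5.71% to 5.72% at day 2, than in these DMSO libraries, 4.67% to 4.75%. At later days its share was higher in DMSO too, 4.99% to 5.06% at day 4 and 5.37% to 5.42% at day 6. In BPK25 it was 5.61% to 5.68% at day 4 and 5.52% to 5.59% at day 6. Chromosome X took a mean of 3.10% at IAA day 0 and 3.35% at IAA day 2. In DMSO its mean share was 3.26% and 3.20% at days 0 and 2, and 3.41% and 3.37% at days 4 and 6. No DNA was measured here, so a change in chromosome copies and a change in expression along a chromosome cannot be told apart. Without chromosomes 12, 14 and X, an alternative chosen after these medians were seen, 4545 genes rose and 4619 fell. Some members of gene lists on these chromosomes are pointed out below. Among others named, Otx2, Bmp4 and Lgals3 lie between 40 and 60 Mb of chromosome 14 and Vcl between 20 and 40 Mb. Gata4 also lies on chromosome 14, Hsp90aa1 on chromosome 12 and Smc1a on chromosome X.

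**Figure D1:**
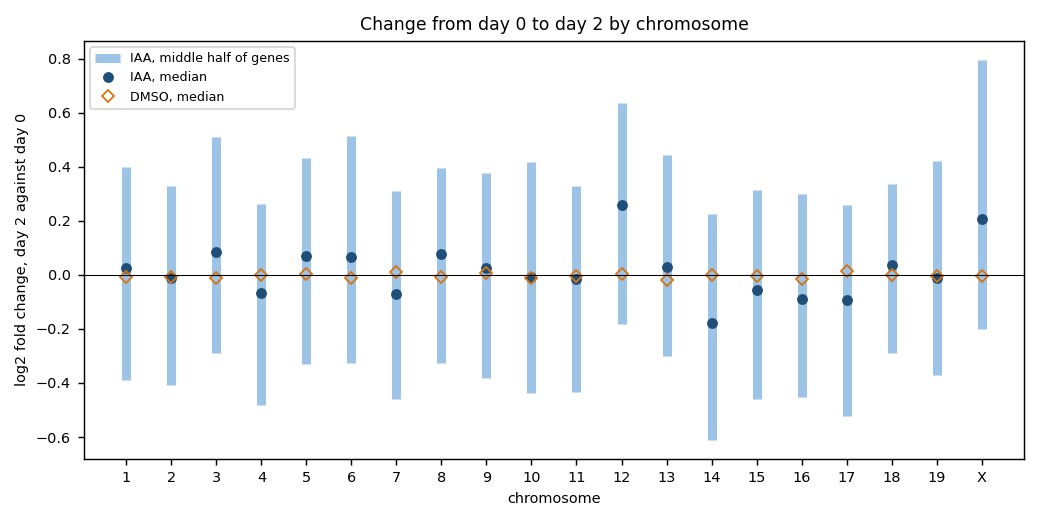
Median log2 fold change from day 0 to day 2 (vertical axis) for the genes tested on each chromosome (horizontal axis), for IAA (filled circles, with a bar from the lower to the upper quartile of genes) and for DMSO (open diamonds). Chromosomes 12 (0.26) and X (0.21) sit above and chromosome 14 (-0.18) below the others in IAA, while the DMSO medians lie close to 0.

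From day 0 to day 2 under IAA, 19 of 20 naive and 13 of 15 core pluripotency genes fell, as did 10 of 16 Nodal and 11 of 17 FGF genes tested, while 12 of 17 retinoic acid genes, 25 of 34 Hox genes and 20 of 21 genes of the 2-cell-like state rose. In all, 5242 of 17394 genes tested rose (30.1%) and 5103 fell (29.3%), 59.5% in either direction, at an adjusted p under 0.05 by edgeR's quasi-likelihood test. Of these, 1454 rose at least 2-fold (8.36%), 1429 fell at least 2-fold (8.22%), and 532 and 390 moved at least 4-fold. The 3 libraries of day 0 and the 3 of day 2 did not overlap for 10979 genes (63.1%). Against this background, a list in which about 30% of members rose and as many fell is near the background. Protein-coding genes rose in 32.8% and fell in 30.6% of cases, and long noncoding RNAs in 18.2% and 24% of cases. The median log2 fold change over all genes tested was 0.01.

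The DMSO libraries changed less over the same days. There, 276 genes rose (1.59%) and 670 fell (3.85%), 5.44% in either direction. This DMSO count of 946 fell to 412 without DMSO day 2 replicate 3, to 468 and 574 when replicate 1 or 3 of DMSO day 0 was dropped, and to 606 with the compared libraries alone, so the shares of the DMSO list given here rest on a list that depends on single libraries. The median size of the log2 fold change was 0.39 in IAA and 0.13 in DMSO. The test of the difference between the changes, which share no library, called 3807 genes (21.9%) more positive in IAA and 3839 (22.1%) more negative, 44% in all. Genes called higher in both treatments numbered 111, which is 2.12% of the IAA list and 40.2% of the DMSO list. Genes called lower in both numbered 417, or 8.17% and 62.2%. Across the 17394 genes, which are not independent replicates, the changes had a Pearson's r of 0.09 and a Spearman's rho of 0.13.

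**Figure D2:**
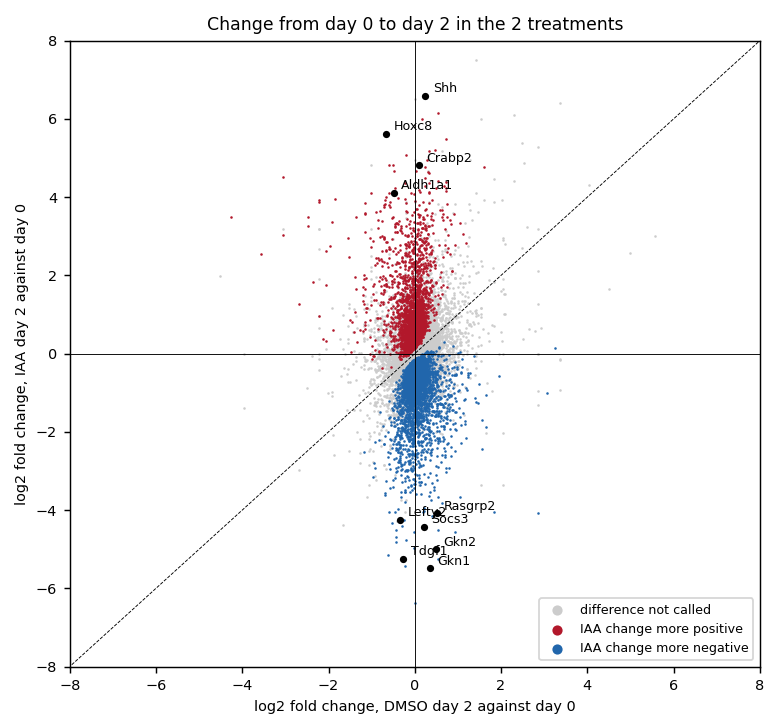
Log2 fold change from day 0 to day 2 in DMSO (horizontal axis) and in IAA (vertical axis) for 17394 genes, coloured where the difference between the changes was called; the dashed line marks equal change. The cloud is taller than it is wide, with median sizes of 0.39 in IAA and 0.13 in DMSO, and Shh, Hoxc8 and Crabp2 at the top and Gkn1, Tdgf1 and Gkn2 at the bottom have DMSO changes between -0.66 (Hoxc8) and 0.49 (Gkn2).

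The retinoic acid pathway had the highest median of the signalling lists (retinoic acid, BMP, Wnt, FGF and Nodal). Of its 17 genes, all tested, 12 rose, 3 fell and 2 were not called, with a median log2 fold change of 1.89, and 10 of the 12 rose at least 2-fold. In DMSO, 1 of the 17 rose, 0 fell, and the median was 0.05. The difference between the changes was called more positive for 12 and more negative for 3. At day 0, 11 of the 17 were lower in IAA than in DMSO and 3 were higher, so the rise began from a lower level. A pair of promoters from this list holds a direct repeat with 5 bases between its copies, each copy being AGGTCA or, as the search allowed, GGGTCA, or again AGTTCA, or lastly GGTTCA; this is the kind of element that RAR and RXR are known to bind. They belong to Cyp26a1 and Rarb, which both rose. They are shown with the repeat in capitals, on the gene's strand, from RefSeq on GRCm38.p6 (chr19:37697558-37697857 on the plus strand and chr14:16575427-16575726 on the minus strand). The repeat of Cyp26a1 lies on the opposite strand, so each AGTTCA copy appears in the printed strand as TGAACT.
Cyp26a1 promoter: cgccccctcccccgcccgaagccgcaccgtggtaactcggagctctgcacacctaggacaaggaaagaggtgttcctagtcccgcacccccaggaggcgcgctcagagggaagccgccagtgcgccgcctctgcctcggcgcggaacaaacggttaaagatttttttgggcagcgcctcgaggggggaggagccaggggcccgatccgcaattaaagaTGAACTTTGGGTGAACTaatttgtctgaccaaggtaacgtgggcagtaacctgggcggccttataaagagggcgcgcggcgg
Rarb promoter: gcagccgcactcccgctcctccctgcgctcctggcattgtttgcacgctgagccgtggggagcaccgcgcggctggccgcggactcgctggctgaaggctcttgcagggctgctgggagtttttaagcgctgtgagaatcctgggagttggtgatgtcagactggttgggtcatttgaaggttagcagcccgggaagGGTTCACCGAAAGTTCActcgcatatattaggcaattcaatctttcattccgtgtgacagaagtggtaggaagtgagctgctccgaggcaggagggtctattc
Of 32851 mouse promoters of 300 bases, from 250 before to 50 after the start, 32 (0.0974%) held this repeat on either strand, as did 2 of the 22 promoters found for 12 genes of the list. The search for this repeat was chosen after the values were seen. With a spacing of 2 bases, the repeat stood in 0.268% of promoters and in 0 of the 22. A match says that the letters are there, not that a receptor binds.

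Among the largest rises of the list were the hydroxylases Cyp26a1 and Cyp26b1 and the carrier Crabp2, while Crabp1, a related carrier, fell. Cyp26a1, the main retinoic acid hydroxylase of the early embryo, measured 49.8, 53.7 and 46.1 CPM in the day 0 libraries and 604, 610 and 586 CPM at day 2. Every day 2 library stood above every day 0 library, and the log2 fold change was 3.58 ± 0.05 (here and below ± after a log2 value approximates a standard error) at an adjusted p of 7.29e-46. The DMSO means were 206 and 217 CPM, so IAA passed from below DMSO to above it. Cyp26b1, a second such hydroxylase, went from 6.88, 8.91 and 8.002 CPM to 161, 161 and 166 CPM, a log2 fold change of 4.36 ± 0.08 (adjusted p = 2.66e-40). Crabp2, which carries retinoic acid to its receptors, went from 13.3, 14.3 and 16.3 CPM to 417, 393 and 413 CPM, a log2 fold change of 4.81 ± 0.08 (adjusted p = 1.06e-43). Its DMSO means were 20.3 and 21.7 CPM. Both genes' day 2 libraries lay far above their day 0 libraries.

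Receptors and retinol handling genes divided. Rarb, the receptor gene that retinoic acid is known to induce, rose from 6.77, 5.57 and 6.69 CPM to 66.5, 71.9 and 66.2 CPM (log2 fold change 3.43 ± 0.10). It lies in the first 20 Mb of chromosome 14, where the median over 76 genes was 0.03. Rarg and Rara, the receptors that stem cells already express, fell by 1.03 and 0.41 on the log2 scale, while Rxra rose by 0.43. Stra6, a retinol uptake receptor, rose from 5.91 ± 0.31 to 40.1 ± 2.82 CPM. Dhrs3, which turns retinal back to retinol, rose from 17.2 ± 1.503 to 72.0 ± 1.39 CPM. Of the enzymes that make retinoic acid, Aldh1a2 rose from 1.60 ± 0.64 to 3.22 ± 0.36 CPM, Aldh1a3 was not called (0.71 and 0.63 CPM), and Rdh10 was not called (6.58 and 7.96 CPM). Crabp1, a paralog of Crabp2, fell from 21.9 ± 0.90 to 3.92 ± 0.60 CPM. Stra8, a retinoic acid target known from meiotic entry in germ cells, rose from 618, 601 and 609 CPM to 2012, 2029 and 1967 CPM, against 1500 and 1556 CPM in DMSO. Aldh1a1, another retinal dehydrogenase and no member of the list, was among the 15 largest rises, from 0.44, 0.22 and 0.73 CPM to 7.37, 7.70 and 8.26 CPM.

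**Figure D3:**
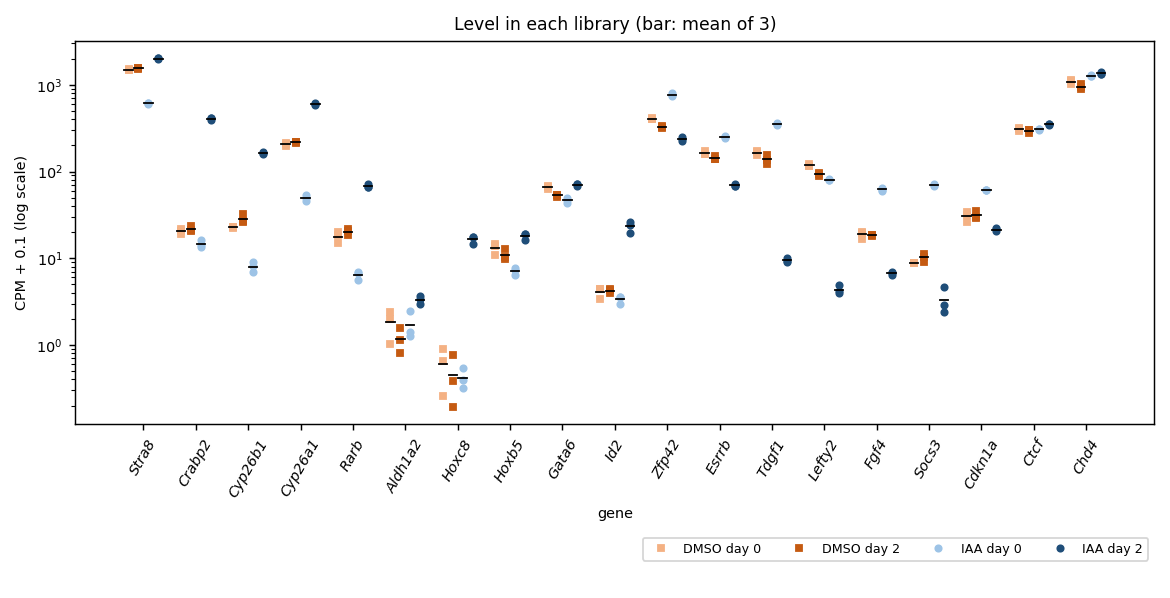
Level of 19 genes (horizontal axis) in each of 12 libraries as CPM + 0.1 on a log scale (vertical axis), with DMSO as squares and IAA as circles, day 0 pale and day 2 dark, and a bar at the mean of 3. Retinoic acid genes and Hox genes such as Cyp26a1 (46.1 to 53.7 CPM at IAA day 0, 586 to 610 at day 2) separate upward, Tdgf1 and Socs3 downward, and Ctcf and Chd4 stay within a narrow range.

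Most Hox genes tested, which give cells their position along the body axis, rose, but no gene of the last group was called higher. Of 39 Hox genes 34 were tested; 25 rose, 2 fell and 7 were not called, the median log2 fold change was 1.22, and 19 rose at least 2-fold. In DMSO 0 rose and 1 fell, with a median of 0.07. The rise began from a lower level, since 18 of the 34 were lower and 4 higher in IAA than in DMSO at day 0. The median log2 difference at day 0 was -0.60, and Hoxb8 (-1.49), Hoxb6 (-1.36) and Hoxb1 (-1.51) were among the lower genes. Hoxc8 was listed at 0.22, 0.45 and 0.29 CPM at day 0 and at 17.4, 17.3 and 14.6 CPM at day 2, a log2 fold change of 5.62 ± 0.26 (adjusted p = 2.18e-24). Hoxb8 went from 9.71, 7.69 and 11.1 CPM to 95.9, 92.3 and 94.8 CPM, and Hoxb6 from 8.08, 8.02 and 8.29 CPM to 76.2, 79.2 and 76.8 CPM. In these 3 genes no day 2 library reached down to a day 0 library. Hoxc9 rose from 0.61 ± 0.24 to 11.5 ± 0.14 CPM. Hoxb1, also counted in the retinoic acid list, rose by 3.04 ± 0.14 on the log2 scale. The 2 that fell were Hoxc13 (-1.81) and Hoxd13 (-0.83), and Hoxa13 and Hoxb13, the other members of that last group, were not called. One of these 2 calls was lost when a library was left out (1 gene lower without IAA day 0 replicate 1, IAA day 0 replicate 3 or IAA day 2 replicate 3). Hoxb5os, an antisense RNA of the Hoxb cluster, rose by 4.78 ± 0.31, but no source used here states whether counting used strand, and reads of the opposite strand cannot be told apart.

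Further genes with the highest log2 fold changes began at about 1 CPM or less. Shh, the hedgehog ligand that patterns the neural tube and limb, had 1 count over the 3 day 0 libraries and 145 counts at day 2 (4.96, 4.93 and 5.32 CPM). The pooled rates differed by 127 times, with an exact 95% interval of 22.5 to 5055 that covers counting error only; without the day 0 library that held the 1 count, the rise was at least 26.9-fold if 3 counts in the whole day 0 group are taken as the floor, and the exact lower limit was 21.6-fold. Meox1, a somite homeobox gene, rose from 0.76, 1.00 and 1.02 CPM to 22.9, 24.0 and 23.3 CPM. Nr2f2, an orphan nuclear receptor, rose from 1.31, 0.89 and 1.02 CPM to 20.8, 25.7 and 23.3 CPM. Zbtb16, a zinc finger repressor, and Svep1, a secreted matrix protein, rose by 4.23 ± 0.25 and 4.28 ± 0.23 on the log2 scale. Csn3, a milk casein, and Slc25a21, a mitochondrial carrier, rose by 4.67 ± 0.31 and 4.17 ± 0.22. For all of these, the 3 day 2 libraries lay above the 3 day 0 libraries, as the rule for naming them asked. Pramef6, which rose by 4.10 ± 0.31, belongs to a family of near-identical copies between which reads may be split, so its value is uncertain.

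Genes of the 2-cell-like state, a rare condition of stem cells that resembles the 2-cell embryo, rose together. Of 21 tested, 20 rose, all of them at least 2-fold, 0 fell and 1 (Eif1ad) was not called, with a median log2 fold change of 2.77, while in DMSO 0 rose, 0 fell and the median was 0.12. Zscan4d, a telomere-linked gene of this state, went from 11.02, 10.4 and 9.89 CPM to 108, 104 and 112 CPM (3.37 ± 0.08). Zscan4c went from 6.66, 6.79 and 5.82 CPM to 57.8, 61.8 and 60.7 CPM (3.21 ± 0.09). Every day 2 library was above every day 0 library in both. Zfp352 rose from 0.32 ± 0.23 to 2.20 ± 0.32 CPM and Arg2, which lies on chromosome 12, from 0.94 ± 0.20 to 3.56 ± 0.12 CPM. The Zscan4, Usp17l and Tcstv members are near-identical copies of one another, so reads may be split between them and their count is not a count of independent genes. At day 0, 11 of the 21 were lower in IAA than in DMSO and 0 were higher.

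**Figure D4:**
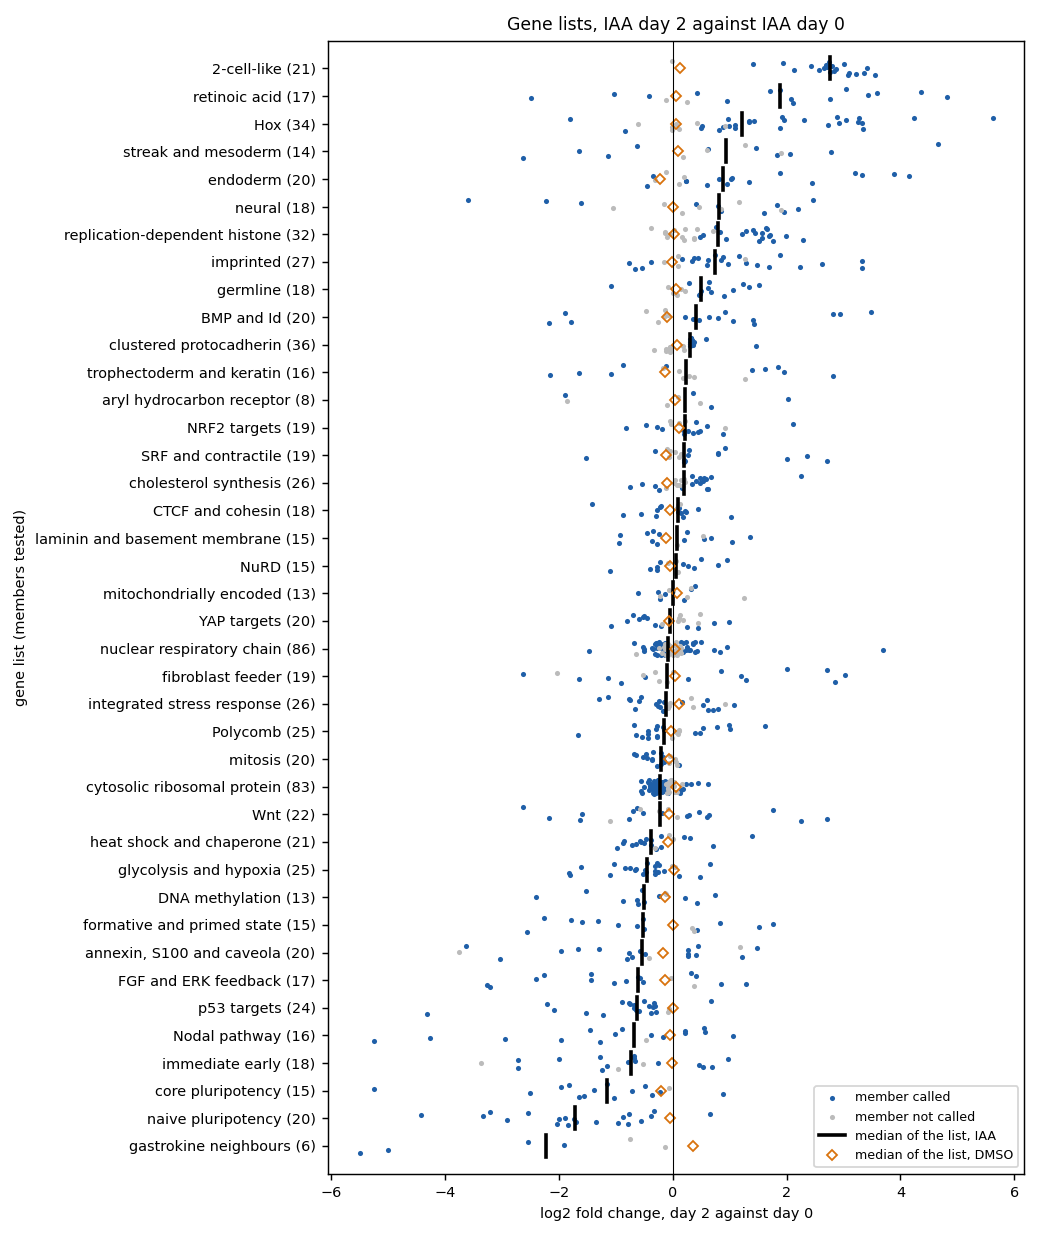
Log2 fold change from IAA day 0 to day 2 (horizontal axis) of every tested member of 40 gene lists (vertical axis, members tested in brackets), with the list's median in IAA as a black bar and in DMSO as an open diamond. The 2-cell-like (2.77), retinoic acid (1.89) and Hox (1.22) medians lie far to the right and the gastrokine neighbour (-2.22), naive (-1.72) and core (-1.15) pluripotency medians to the left, while the DMSO medians lie between -0.22 (endoderm) and 0.36 (gastrokine neighbours).

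Naive pluripotency genes fell. All 20 were tested, 19 fell, 12 of them at least 2-fold, and Gbx2 rose (0.66 ± 0.09), with a median log2 fold change of -1.72. In DMSO 7 fell and 0 rose, with a median of -0.04, and the difference between the changes was more negative in IAA for 19 of them and more positive for 1. Zfp42 (Rex1), a marker of the naive state, measured 797, 756 and 752 CPM at day 0 and 226, 236 and 247 CPM at day 2 (-1.70 ± 0.05, adjusted p = 9.02e-33). Klf4, a transcription factor downstream of LIF, fell from 350, 313 and 328 CPM to 82.5, 78.3 and 81.4 CPM. Esrrb, a nuclear receptor of the naive network, fell from 252, 253 and 242 CPM to 68.5, 72.5 and 67.2 CPM; it lies on chromosome 12, where most called genes rose. None of the day 2 libraries of these 3 genes reached its day 0 libraries. At day 0, 12 of the 20 were higher in IAA than in DMSO and 4 lower.

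LIF signalling readouts were among the falls. Socs3, the feedback inhibitor that LIF and STAT3 induce, fell from 70.3, 68.2 and 72.6 CPM to 2.29, 4.54 and 2.75 CPM (-4.43 ± 0.11, adjusted p = 6.18e-35). DMSO libraries held 8.70 CPM at day 0 and 10.1 CPM at day 2, so the IAA level went from well above to below theirs. The LIF receptor gene Lifr fell by 0.77 on the log2 scale and Stat3 by 0.38. Nr0b1 and Tcl1, naive network members on chromosomes X and 12, fell by 2.91 and 3.33. Dppa3 (Stella) fell from 12.99 ± 2.44 to 3.51 ± 0.13 CPM.

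Most core pluripotency genes fell too. Of 15 tested, 13 fell, 9 at least 2-fold, Lin28a rose (0.88 ± 0.06) and Epcam was not called (-0.06 ± 0.06), with a median of -1.15. In DMSO 6 fell, 1 rose and the median was -0.21. The day 0 level was higher in IAA than in DMSO for 8 of the 15 and lower for 3. Pou5f1 (Oct4) fell from 1030, 1020 and 1003 CPM to 505, 508 and 489 CPM. Sox2 fell from 502, 533 and 510 CPM to 159, 171 and 163 CPM, and Nanog from 160, 167 and 165 CPM to 51.5, 60.4 and 55.1 CPM. Day 2 libraries of all 3 lay below their day 0 libraries. Dppa2 (-0.23) and Sall4 (-0.36) fell least among those called.

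In the Nodal pathway the ligand Nodal, the co-receptor and the feedback inhibitors Lefty1 and Lefty2 were lower at day 2, while receptor and transducer genes were among those that rose. Of 16 genes tested 10 fell, 7 at least 2-fold, and 5 rose, with a median of -0.67, against 2 lower, 0 higher and -0.04 in DMSO. The day 0 level was higher in IAA than in DMSO for 4 of the 16 and lower for 8. Tdgf1 (Cripto), the co-receptor for Nodal and a member of the core list too, had the lowest log2 fold change among called genes with at least 5 CPM in 1 of the IAA groups and a symbol that is no predicted name, -5.25 ± 0.07 (adjusted p = 1.62e-45). It measured 361, 348 and 356 CPM at day 0 and 10.04, 9.08 and 9.02 CPM at day 2. Lefty2, a Nodal inhibitor that Nodal itself induces, fell from 82.0, 79.9 and 79.4 CPM to 4.83, 4.05 and 3.89 CPM, and Lefty1 from 53.3, 56.7 and 63.1 CPM to 9.28, 6.61 and 6.93 CPM. Its pseudogene copy Tdgf1-ps1 fell too, from 17.0 to 0.62 CPM, and reads may be split between them. Nodal fell from 30.1 ± 3.13 to 12.5 ± 1.30 CPM. Every named falling gene had its 3 day 2 libraries below its 3 day 0 libraries. Among the transducers, Smad2 (0.21), Smad3 (0.56) and Smad4 (0.22) and the receptor Acvr2a (1.05) rose, and so did Furin (0.54), a protease that processes the ligand.

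FGF and ERK feedback genes fell in 11 of 17 cases tested and rose in 4, with a median of -0.60, against 1 lower and 0 higher in DMSO. Fgf4, the main FGF of stem cells, fell from 61.5, 60.04 and 65.0 CPM to 6.35, 6.91 and 6.74 CPM (-3.21 ± 0.11). The day 0 level was higher in IAA than in DMSO for 9 of the 17 genes and lower for 2. Fgf4, Etv4 and Spry4 were among those higher, by 1.74, 0.88 and 0.74 on the log2 scale. The ERK-induced genes Spry4, Etv4 and Etv5 fell by 2.40, 2.26 and 1.43 on the log2 scale. Dusp6, another such feedback gene, rose by 0.42. The receptors Fgfr1 (0.85 ± 0.06) and Fgfr2 (1.29 ± 0.07) rose, while Fgfr3 (-1.02) and Fgfr4 (-0.53) fell. Immediate early genes fell in 11 of 18 cases and rose in 4, with a median of -0.74. Among them Myc, also a pluripotency-linked gene, fell from 10.4 to 1.57 CPM, while Klf6 rose from 32.7 to 64.5 CPM.

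BMP and Id genes tended upward, with 12 of 20 higher, 3 lower and a median of 0.41. Id2, a BMP-induced inhibitor of differentiation factors, rose from 3.49, 2.90 and 3.49 CPM to 24.3, 25.9 and 19.5 CPM; it lies on chromosome 12. Id1 was not called (17.5 and 16.3 CPM), and Bmp4, a ligand, fell from 15.7 to 3.42 CPM. Msx1, a BMP target, rose from 0.53 ± 0.51 to 5.46 ± 0.44 CPM. Wnt genes divided, with 8 higher and 9 lower of 22 tested and a median of -0.22. The inhibitor Dkk1 rose from 3.88 to 13.3 CPM and the feedback gene Axin2 from 8.57 to 13.1 CPM, while T (brachyury), a Wnt target of the primitive streak, fell from 2.22 to 0.36 CPM.

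Formative and primed state genes, which mark the step after naive pluripotency, did not rise together. Of 15 tested 4 rose and 9 fell, with a median of -0.51. Otx2, a regulator of that step, fell from 23.0 ± 0.65 to 3.88 ± 1.41 CPM, and Dnmt3b from 168 ± 7.48 to 119 ± 4.17 CPM. Fgf5 (1.21 and 1.59 CPM) and Pou3f1 (1.63 and 2.09 CPM), markers of that state, were not called. Cdh2 (N-cadherin) rose from 5.99 to 20.7 CPM. Without chromosomes 12, 14 and X, 1 gene of this list was higher, since Dnmt3a (12), Sall2 (14) and Sox3 (X) lie there.

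Most endoderm genes rose in IAA, while in DMSO the called members fell. Of 20 tested 14 rose, 9 at least 2-fold, and 2 fell, with a median of 0.89; in DMSO 0 rose and 8 fell, with a median of -0.22. At day 0, 15 of the 20 were lower in IAA than in DMSO and 0 higher. Dab2, an endocytic adaptor of extraembryonic endoderm, rose from 215, 212 and 214 CPM to 447, 428 and 428 CPM, against 350 and 296 CPM in DMSO. Gata6, an endoderm regulator, rose from 43.0, 47.1 and 48.9 CPM to 71.9, 68.4 and 71.0 CPM, against 65.7 and 52.8 CPM in DMSO. Day 2 libraries were above day 0 libraries in both genes, by more in Dab2. Foxa1, a pioneer factor, and Apob, a lipoprotein gene, rose by 2.44 ± 0.14 and 3.21 ± 0.11 and both lie on chromosome 12. Apoa1, another lipoprotein gene, rose from 0.36 ± 0.18 to 5.53 ± 0.44 CPM. Sox17 (17.0 and 18.3 CPM) and Hnf4a (7.66 and 6.23 CPM), endoderm regulators, were not called, and Gata4 and Lrp2 fell by 0.45 and 0.34. The summed level of 5 endoderm markers was 84.1 to 95.6 CPM at day 0 and 118 to 121 CPM at day 2, against means of 138.7 and 120.7 CPM in DMSO.

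Matrix and keratin genes moved singly. Of 15 laminin and basement membrane genes 6 rose and 7 fell, among them Col4a1 (1163 to 1705 CPM) up and Lama5 (155 to 80.6 CPM) down; Lamb1, which rose by 1.04, lies on chromosome 12. Of 16 trophectoderm and keratin genes 5 rose and 5 fell. Dsp (desmoplakin) rose from 243 to 881 CPM and Krt8 and Krt18, the keratins of simple epithelia, by 1.40 and 1.63, while the trophectoderm factors Tfap2c (-2.15) and Tead4 (-1.08) fell, Cdx2 was not called and Gata3 rose from 0.64 to 4.51 CPM. Of 19 fibroblast feeder genes 8 rose and 5 fell: Col1a2 rose from 2.00 to 14.7 CPM and Col1a1 fell from 5.82 to 3.15 CPM. The 3 feeder collagens together measured 8.47 ± 1.34 CPM at day 0 and 18.5 ± 1.01 CPM at day 2, and their part in the changes of matrix genes was not tested. Annexin, S100 and caveola genes fell in 10 and rose in 7 of 20 cases, with the lectin gene Lgals3 falling from 7.11 to 0.57 CPM. Contractile and SRF target genes rose in 11 and fell in 2 of 19 cases; Vcl (vinculin) rose from 138 to 241 CPM. YAP target genes rose in 4 and fell in 9 of 20 cases, with Amotl2 (0.99) the largest rise.

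Mesoderm and neural genes were mixed. Of 14 streak and mesoderm genes 6 rose and 4 fell, with Kdr, a receptor of early vascular mesoderm, rising from 2.27 to 15.5 CPM. Of 18 neural genes 8 rose and 3 fell. Pax6 rose from 6.00 to 23.4 CPM and Sox11, on chromosome 12, from 9.29 to 33.0 CPM, while the neuronal genes Elavl3 (18.4 to 1.51 CPM) and Stmn2 (126 to 26.9 CPM) fell. The number of neural genes called higher was 5 without IAA day 0 replicate 2, and the number lower was 5 without IAA day 0 replicate 3.

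Imprinted genes, expressed from 1 parental copy, rose in 19 of 27 cases and fell in 4, with a median of 0.74 and 9 at least 2-fold; in DMSO 1 rose and 1 fell. Mest rose from 48.1, 55.7 and 48.6 CPM to 309, 317 and 312 CPM (2.62 ± 0.05), against 64.1 and 69.3 CPM in DMSO. Igf2, a growth factor, rose from 3.27, 3.68 and 3.06 CPM to 35.7, 35.3 and 30.4 CPM; another gene model overlaps it. The day 2 libraries of both exceeded the day 0 libraries. Peg3 and Peg10 rose by 1.68 and 1.48, whereas H19, the noncoding partner of Igf2, fell by 0.66. Dlk1 (3.33), Meg3 (0.34), Rian (0.86) and Mirg (0.62) rose and lie together on chromosome 12. Germline genes rose in 12 of 18 cases and fell in 1 (Hormad1), with Dazl, an RNA-binding protein of germ cells, rising from 122 to 228 CPM, below the 315 CPM of DMSO at day 0.

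Genes of DNA methylation fell in 8 of 13 cases and rose in 3, with a median of -0.50. Tet1, which oxidises methylated cytosine, fell from 492, 496 and 513 CPM to 92.1, 93.5 and 97.4 CPM (-2.40 ± 0.05, adjusted p = 2.69e-40), against 234 CPM in DMSO at day 0 and 185.5 CPM at day 2. Zfp57, which guards imprints, fell by 1.51, while Tet3 and Dnmt3a (chromosome 12) rose by 0.75 and 0.43. Polycomb genes fell in 13 and rose in 7 of 25 cases, with Suz12 (-0.55) and Ezh2 (-0.43), core subunits, lower and Bmi1 (1.01) and Cbx8 (1.63) higher.

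NuRD, the chromatin remodelling and deacetylase complex named in the series title, and CTCF, the DNA-binding architectural protein, were read in their RNA, which does not measure a protein that a degron removes. Ctcf measured 313, 308 and 298 CPM at day 0 and 351, 351 and 347 CPM at day 2, a rise of 0.19 ± 0.04 (adjusted p = 7.58e-05), with every day 2 library above day 0. Chd4, the main NuRD remodeller, measured 1282, 1276 and 1268 CPM at day 0 and 1333, 1340 and 1422 CPM at day 2. It was not called (0.10 ± 0.04, adjusted p = 0.0555), although the libraries did not overlap. In a fit of the 6 libraries compared alone it was called (adjusted p = 0.0224). Of 15 NuRD genes 6 rose and 5 fell. Rbbp7, a histone-binding subunit on chromosome X, rose from 296, 279 and 301 CPM to 571, 551 and 578 CPM (0.96 ± 0.04), Mbd2 rose by 0.80 ± 0.08, Cdk2ap1 by 0.49, Mta1 (chromosome 12) by 0.38, Mta3 by 0.27 and Mbd3 by 0.19. Chd5, an alternative remodeller, fell from 54.2, 50.3 and 50.3 CPM to 26.4, 23.7 and 23.0 CPM (-1.09 ± 0.08). Every day 2 library lay above day 0 for Rbbp7 and below it for Chd5. Hdac2 (-0.40), Mta2 (-0.28), Hdac1 (-0.27) and Gatad2b (-0.22) fell, and Chd3, Rbbp4 and Gatad2a were not called; Gatad2a was called lower without IAA day 0 replicate 3 or IAA day 2 replicate 3 (-0.11 and -0.12). Of 18 CTCF and cohesin genes 8 rose and 7 fell, with the cohesin subunits Smc3 (-0.55) and Smc1a (-0.29) lower and Rad21 (0.15) higher.

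p53 target genes fell in 20 of 24 cases and rose in 1 (Plk3), with a median of -0.62, and in DMSO 0 rose and 0 fell. Cdkn1a (p21), a cell cycle inhibitor, fell from 61.6, 61.2 and 61.4 CPM to 20.3, 21.5 and 22.0 CPM, against 30.4 and 31.2 CPM in DMSO. Pmaip1 (Noxa) fell from 108 to 25.4 CPM, Trp73, a p53 relative, from 7.998 to 0.40 CPM, and Trp53 itself from 105 to 45.1 CPM. At day 0, 14 of the 24 were higher in IAA than in DMSO and 3 lower. Mitosis genes fell in 14 of 20 cases and rose in 1 (Ccnb1, a call lost in 5 of the alternatives), by less than 2-fold in each case. Replication-dependent histone genes rose in 19 of 32 cases and fell in 0; their RNAs mostly lack a poly(A) tail, most were listed at a few CPM, and the list includes H1f0, a replacement histone.

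Glycolysis and hypoxia genes fell in 20 of 25 cases and rose in 3, with a median of -0.45. Pfkp, a glycolytic kinase, fell from 297, 312 and 289 CPM to 88.2, 83.7 and 82.5 CPM, and Hk2, which phosphorylates glucose, from 245, 242 and 256 CPM to 69.0, 72.4 and 70.1 CPM. Pkm, the last glycolytic kinase, fell from 2452 to 1455 CPM but remained above the 981 CPM of DMSO at day 0. At day 0, 22 of the 25 were higher in IAA than in DMSO. Nuclear respiratory chain genes rose in 19 and fell in 30 of 86 cases, and mitochondrially encoded genes rose in 3 and fell in 4 of 13. In the latter the call of mt-Atp6 (0.32) was lost with DESeq2 (0.31, adjusted p = 0.0768) and without IAA day 0 replicate 3 or IAA day 2 replicate 3.

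Cytosolic ribosomal protein genes fell in 56 of 83 cases and rose in 7, with a median of -0.21, none by 2-fold; in DMSO 18 rose and 5 fell. Rpl22 (-0.56), Rpl37a and Rplp1 (-0.50) were among the usual subunits that fell. Of the rises, 3 (Rps7, Rpl10l and Rpl15) lie on chromosomes 12 and 14. Rpl10l, Rpl39l and Rpl7l1 are paralogs of subunits. Heat shock and chaperone genes fell in 14 of 21 cases and rose in 4, with Hsp90aa1 falling from 6954 to 3862 CPM and Serpinh1, the collagen chaperone, rising from 211 to 553 CPM.

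Stress and metabolic lists differed in direction. Integrated stress response genes rose in 7 and fell in 13 of 26 cases, NRF2 targets rose in 10 and fell in 4 of 19, and cholesterol synthesis genes rose in 13 and fell in 4 of 26, among them Hmgcs1 (0.62) up. Of 8 aryl hydrocarbon receptor genes 3 rose and 1 fell; Cyp1b1 rose from 2.62 to 10.6 CPM, and Cyp1a1, the usual readout of this receptor, was not called (0.15 and 0.03 CPM). Clustered protocadherin genes rose in 22 of 36 cases and fell in 0, with a median of 0.31, but 21 of them are gamma genes that share exons and had a median pairwise correlation of 0.995 over libraries, so they are not separate observations.

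Several genes with the lowest log2 fold changes belong to none of the lists. Nphs1 (nephrin) fell from 8.08, 10.4 and 6.40 CPM to 0, 0.395 and 0.475 CPM, and Lrrc2 from 19.2, 22.3 and 21.7 CPM to 0.76, 1.28 and 0.85 CPM. Rasgrp2, an exchange factor for Rap proteins, fell by 4.08 ± 0.31, Nectin4, an adhesion receptor, by 4.03 ± 0.30, and Pou2f3, a POU factor, by 3.64 ± 0.30. B3gnt3 (-4.37), Ly6g6e (-4.14), Sox15 (-3.55) and Cd80 (-3.55) also fell. Of the 6 gastrokine neighbours 4 fell and 0 rose. Gkn1, a stomach mucosa gene, had 93 counts at day 0 and 2 at day 2, so its pooled rate was 53.04 times lower, with an exact 95% interval of 14.3 to 444. Gkn2, its neighbour, had 94 and 3 counts, 35.7 times lower with an interval of 11.9 to 176. Both rose in DMSO, where Gkn1 measured 16.4 and 20.9 CPM. Removal of a single library moved the ratio to between 38.4 and 68.4 for Gkn1 and between 25.9 and 69.1 for Gkn2.

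Later days place these levels in the series. Under IAA, Cyp26a1 measured 600 CPM at day 2, 635 at day 4 and 444 at day 6, while in DMSO it measured 217, 559 and 679 CPM. Zscan4c measured 60.1, 52.9 and 16.7 CPM in IAA and 12.8, 61.1 and 58.2 CPM in DMSO. Tdgf1 measured 9.38, 17.7 and 45.7 CPM in IAA and 138, 6.64 and 9.76 CPM in DMSO at the same days. In these 3 genes the level of IAA day 2 resembled that of DMSO day 4 more than that of DMSO day 2. Tdgf1 was nearer still to DMSO day 6. Not all named genes were nearest to DMSO day 4. Hoxc8 (16.4 CPM at IAA day 2) was nearer to DMSO day 6 (14.55 CPM) than to DMSO day 4 (7.37 CPM). So was Meox1 (23.4 CPM, against 26.0 and 10.8 CPM). Crabp2 at IAA day 2 (408 CPM) stood above DMSO at days 4 and 6 (175 and 95.8 CPM). The summed stem cell, feeder, trophectoderm and mesoderm markers were nearer to DMSO day 4 than to DMSO day 2. Other sums were nearer to DMSO day 2. Endoderm markers summed to 119.8 CPM in IAA day 2 and to 120.7 and 149.5 CPM in DMSO days 2 and 4. Neural markers summed to 47.3 CPM, against 50.1 and 61.6 CPM. No test of these resemblances was made.

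**Figure D5:**
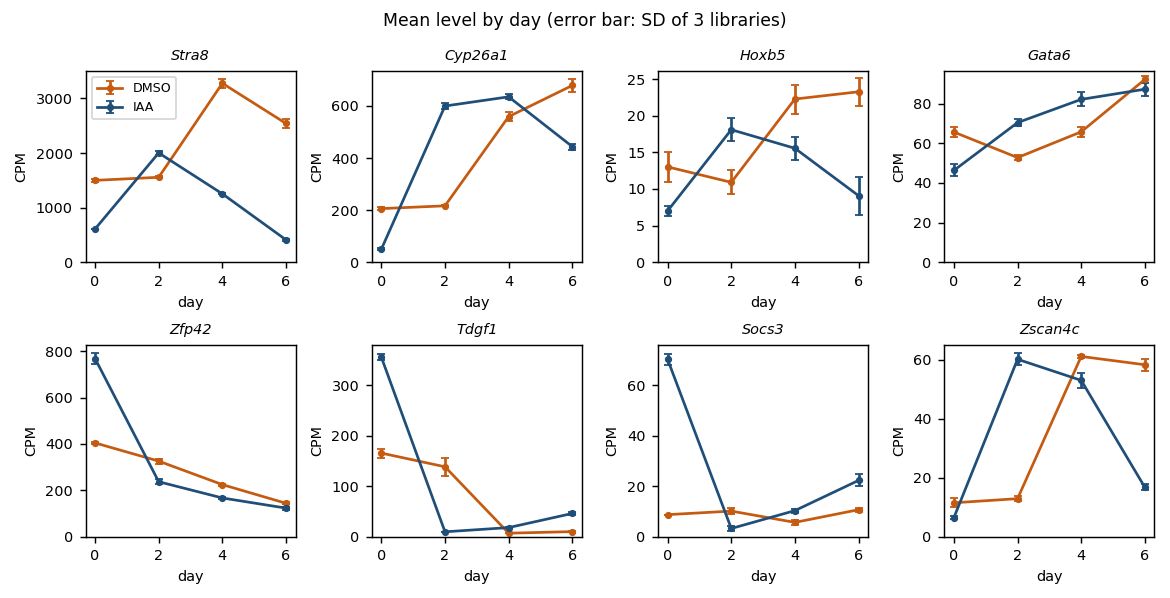
Mean level in CPM (vertical axes, SD of 3 libraries as error bars) of 8 genes at days 0, 2, 4 and 6 (horizontal axes) in IAA (blue) and DMSO (orange). In IAA, Cyp26a1 stood at 600 CPM and Zscan4c at 60.1 CPM by day 2, and DMSO reached 559 and 61.1 CPM at day 4.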

How the data were processed

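RNA counts of 36 mouse embryonic stem cell libraries (3 treatments by 4 days, 3 libraries each) were used. What the authors deposited was a single table with the raw read count of each gene, in whole numbers. The submitters' processing notes list HISAT2 2.1.0, featureCounts 2.0.1, FastQC 0.11.7 and DESeq2, and the mm10 build. Strand setting and annotation release: not given in the sources used here. Library protocols in the labels name a SMARTer mRNA-seq kit.

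The filter was filterByExpr of edgeR (minimum count 10, minimum total 15), and 17394 of 55335 genes passed it. Scaling was by TMM and CPM used scaled totals. A single model with a mean for each of the 12 groups was fitted to the 36 libraries and tested with edgeR's quasi-likelihood test, two-sided, with Benjamini-Hochberg adjustment over all genes tested, called under 0.05. Contrasts were IAA day 2 minus day 0, DMSO day 2 minus day 0, the difference between these, and IAA or BPK25 day 0 minus DMSO day 0, the last added after the data were seen. The ± of a log2 fold change is its size over the square root of F. Software was edgeR 4.0.16, DESeq2 1.42.0 and limma 3.58.1 under R 4.3.3.

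The comparison, the 40 gene lists and the rules were chosen with earlier results of these data known. By rule the text names the 15 called genes that rose most and the 15 that fell most, if 1 group averaged 5 CPM or more, libraries did not overlap and the symbol was not a predicted or clone name; the 5 largest differences from DMSO in each direction; up to 4 called and up to 4 opening members of each list; and always Ctcf and NuRD genes. Other members named were chosen after their values were seen.

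Gene positions came from GENCODE M21 on GRCm38 (mm10), which matched 55154 genes of the table (99.7%). Replicates of a group differed by more than sampling noise and none were identical. On simulated counts for this comparison, 200 of 17394 genes were changed, 50 each by 1.25, 1.5, 2 and 4-fold. The test recovered 42%, 56%, 78% and 94% of them, and 9 of its calls (6.25%) were false. The simulation changed a far smaller share of genes than the 59.5% called in the data, so these rates need not hold there. Intervals for low counts are exact at 95%; they cover counting error alone, and reads are not independent molecules. Settings varied in turn were the scaling (RLE), the tool (DESeq2, Wald test), the filter (none, or 1 CPM in 3 libraries), the libraries in the fit, a replicate block, each library left out, and chromosomes 12, 14 and X left out.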

Additional observations from a re-analysis of the deposited data

Results flagged for a closer look

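The change from day 0 to day 2 differed between IAA and DMSO, by the test of the difference itself, for 3807 genes in the positive and 3839 in the negative direction. The largest positive differences on the log2 scale among genes named by rule were 6.34 for Shh, 6.28 for Hoxc8, 5.15 for Csn3, 4.72 for Crabp2 and 4.59 for Aldh1a1. The largest negative differences were -5.85 for Gkn1, -5.49 for Gkn2, -4.98 for Tdgf1, -4.64 for Socs3 and -4.59 for Rasgrp2. The values for Shh, Gkn1 and Gkn2 rest on 1, 2 and 3 counts in an IAA group and are not bounds. The genes began from different levels in the treatments: Socs3 measured 70.4 CPM in IAA and 8.70 CPM in DMSO at day 0, and Gkn1 3.80 and 16.4 CPM.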

How the results depend on the processing

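All counts of genes higher, lower, at least 2-fold higher and at least 2-fold lower from IAA day 0 to day 2, and of genes more positive or more negative than in DMSO, stayed within 1.5 times their value under every alternative run. Where the fit was run again, calls in either direction numbered 9502 to 10353 against 10345. Of the 10345, 89.9% to 100% recurred, each in its direction. Without chromosomes 12, 14 and X the main tests were only counted again, so its 9164 calls (88.6%) recur by construction. DESeq2 called 9597. With a replicate block 5233 genes rose and 5095 fell (10328, of which 10290 were shared); replicate numbers share only a name, since same-numbered IAA libraries of the 2 days had correlations of their deviations of 0.005, 0.001 and -0.03. The DMSO count of 946 fell to 606 with the libraries compared alone, and ranged from 412 to 954 with 1 library left out. It was 468 or 574 when replicate 1 or 3 of DMSO day 0 was dropped, and 412 when replicate 3 of DMSO day 2 was. The cause was not tested. Without chromosomes 12, 14 and X, 1206 genes were at least 2-fold higher and 1298 at least 2-fold lower, and 3253 and 3461 differed from DMSO; 4 ribosomal genes were higher against 7, and 1 endoderm gene lower against 2. Mitochondrially encoded genes higher numbered 6 with no filter or with the libraries compared alone and 5 without IAA day 2 replicate 1, against 3, and NRF2 targets lower numbered 2 against 4 without IAA day 2 replicate 2. The depth of 7329926 to 10633059 counts limits genes under about 1 CPM, whose standard errors are wide.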
